A study of Mus musculus with 9 samples.

Results

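The nuclear genes for the subunits of the 5 oxidative phosphorylation complexes were measured in alveolar macrophages, the phagocytes that live in the airspaces of the lung, with and without Suz12. Members were taken by mouse symbol: names in Ndufa, Ndufb, Ndufc, Ndufs and Ndufv for complex I, Sdha to Sdhd for complex II, Uqcr for complex III, Cox4i and Cox5 to Cox8 for complex IV, and Atp5 for complex V. Assembly factors named Ndufaf and 5 pseudogenes were left out. The rule found 87 of 27179 genes in the count table: 40 for complex I, 4 for complex II, 8 for complex III, 18 for complex IV and 17 for complex V. The symbol rule places Ndufa4 in complex I, although its protein is known as a subunit of complex IV, and counts Cox7a2l, a factor of respiratory supercomplexes, with complex IV. It misses Cyc1, the cytochrome c1 subunit of complex III, which is given with the electron carriers.

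Complexes I to IV pass electrons from NADH and succinate to oxygen and, at complexes I, III and IV, pump protons across the inner mitochondrial membrane. Complex V, the ATP synthase, lets the protons back and makes ATP. Most subunits are encoded in the nucleus and imported, while a small set is encoded by mitochondrial DNA. Alveolar macrophages are known to take up and break down the lipids of lung surfactant, and fatty acid oxidation feeds electrons into this chain.

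The study compared sorted cells from the lungs of C57BL/6 mice aged 1 week, with 4 wild type libraries and 5 libraries of the genotype Suz12 cKO, a conditional knockout of a core subunit of Polycomb repressive complex 2. The sources used here do not say which Cre driver was used, which exons were deleted, or whether a library holds 1 mouse or a pool, so p-values measure the spread between libraries that the submitters call biological replicates. In such bulk samples fewer cells of a type and less RNA per cell cannot be told apart. Libraries held 13.8 to 25.3 M assigned counts (M, 1e6) in wild type and 18.6 to 45.6 M in the knockout group. Levels are counts per 1e6 (CPM) of the scaled library, and all changes are log2 fold changes of knockout minus wild type, with adjusted p-values from edgeR's quasi-likelihood test. Suz12 stood at 67.5, 76.7, 51.7 and 70.7 CPM in wild type and at 11.9, 14.7, 21.8, 13.1 and 18.5 CPM in the cKO libraries (log2 fold change -2.06, SE 0.18, adjusted p = 1.69e-05). All 10 alveolar macrophage markers were detected, with summed levels of 36410 to 77770 CPM in wild type and 27630 to 53830 CPM in the knockout group, and 2 were lower and 1 higher. No tested marker of the interstitial macrophage, neutrophil, epithelial, endothelial, fibroblast, lymphocyte or erythroid lists was called.

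Transcripts of complexes I, III, IV and V were mostly lower in the knockout libraries, and those of complex II were not called. Of the 87 members 82 passed the count filter, and 55 of these fell while 2 rose at an adjusted p under 0.05, against 11.0% and 8.97% of all 12840 tested genes. The median log2 fold change of the tested members was -0.52, and that of all tested genes was 0.04. By complex, 29 of 39 tested members fell in complex I (median -0.54), 0 of 4 in complex II (-0.08), 5 of 7 in complex III (-0.56), 9 of 15 in complex IV (-0.49) and 12 of 17 in complex V (-0.54). All knockout libraries lay below all wild type libraries for 42 tested members and above them for 1, against 9.87% and 10.9% of tested genes. Members took 1.26, 1.103, 1.39 and 1.29% of counts in the wild type libraries and 1.003, 1.02, 1.06, 1.19 and 1.099% in the knockout libraries, so that wild type replicate 2 lay within the knockout range.

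**Figure D1:**
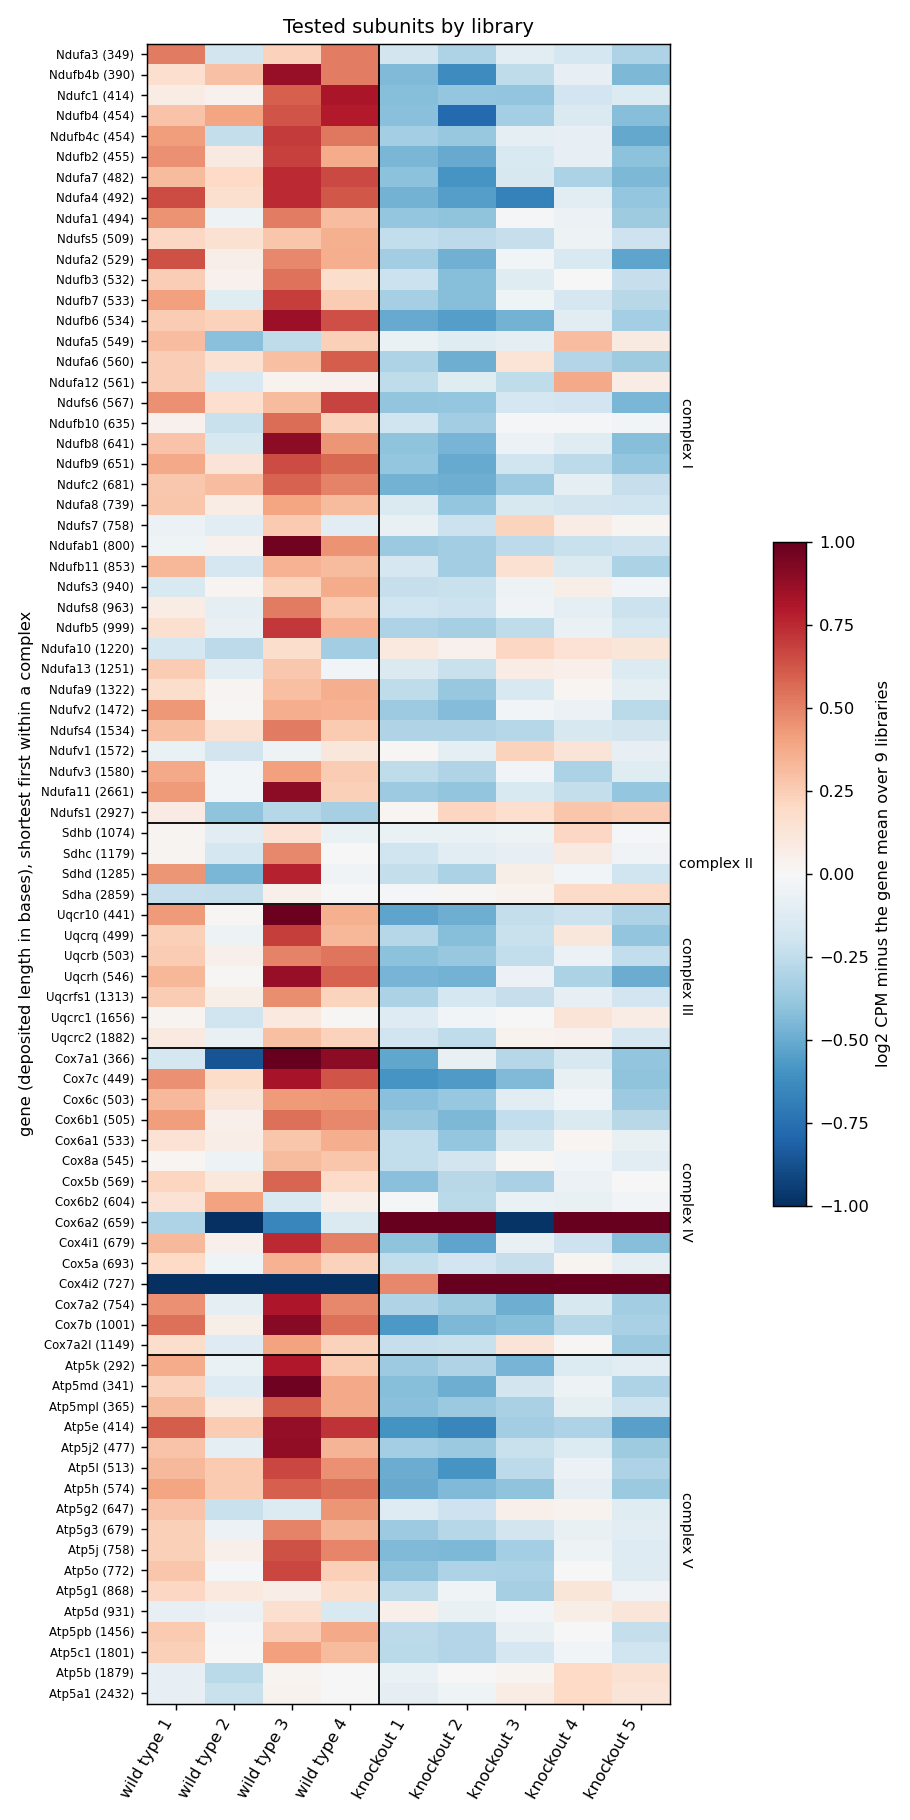
Level of 81 of the 82 tested subunit genes in each library as log2 CPM minus the gene's mean over 9 libraries, with the colour scale ending at -1 and 1. Genes are ordered by complex and, within a complex, from short to long deposited length. Wild type replicate 3 is the reddest column and wild type replicate 2 is pale. The rows of some long genes, such as Atp5b and Ndufs1, are pale or reversed, while others, such as Ndufa11 and Atp5c1, look like those of short genes.

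The size of the difference followed gene length. Members were short, with a median deposited length of 647 bases (292 to 2927) against 1976 bases for the whole table. Members of up to 500 bases had a median of -0.73 (log2 fold change), followed by -0.59 from 501 to 600, -0.40 from 601 to 750, -0.38 from 751 to 1000, -0.39 from 1001 to 1500, -0.16 from 1501 to 2000 and 0.16 from 2001 to 3000 bases. The other tested genes whose mean log2 CPM reached 5, called abundant here, gave -0.76, -0.60, -0.52, -0.46, -0.27, -0.07 and 0.04 in the same classes. In the classes up to 1000 bases the members' median was thus not below that of other abundant genes, while in the classes from 1001 to 2000 bases it was lower by about 0.1 on the log2 scale. With lengths of the principal GENCODE transcript the members were also lower from 601 to 750 bases (-0.64 against -0.55) and from 751 to 1000 bases (-0.49 against -0.47). Beside other genes of all levels, whose medians were -0.57, -0.46, -0.37, -0.33, -0.17, -0.03 and 0.05, the members were lower in each class up to 2000 bases. The classes over 1500 bases hold only 8 and 4 members.

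**Figure D2:**
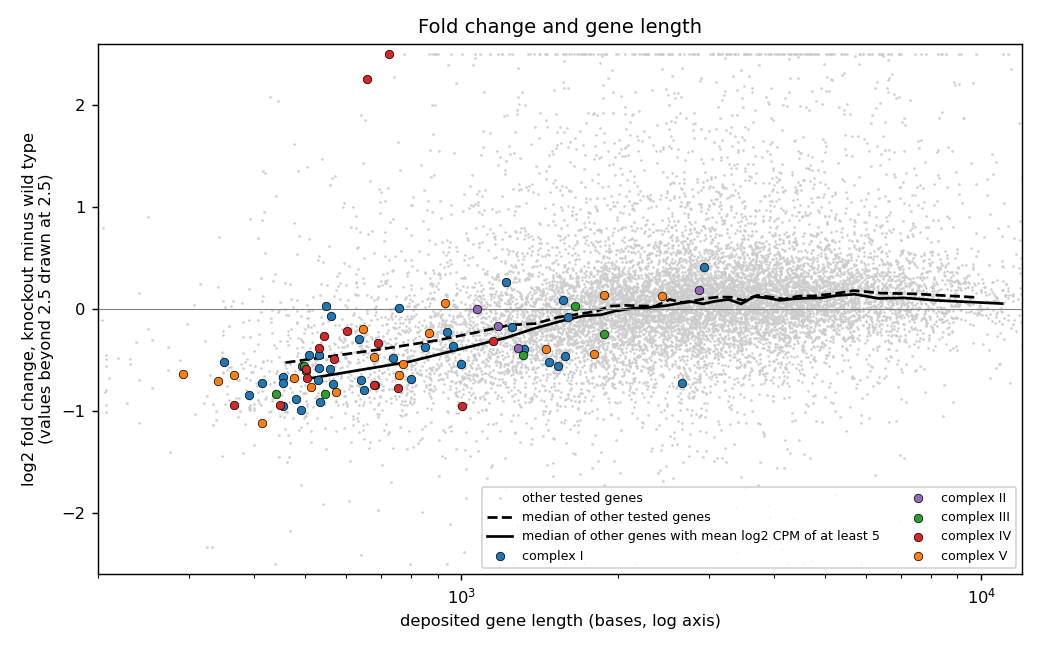
Log2 fold change of each tested gene against its deposited length on a log axis. Grey points are other genes, coloured points are subunits by complex, and lines join medians of 30 equal bins of other genes (dashed, all; solid, abundant genes, whose mean log2 CPM reached 5). Most subunits lie around the solid line, with Cox4i2 and Cox6a2 far above it and Ndufa11, at 2661 bases, far below.

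**Figure D3:**
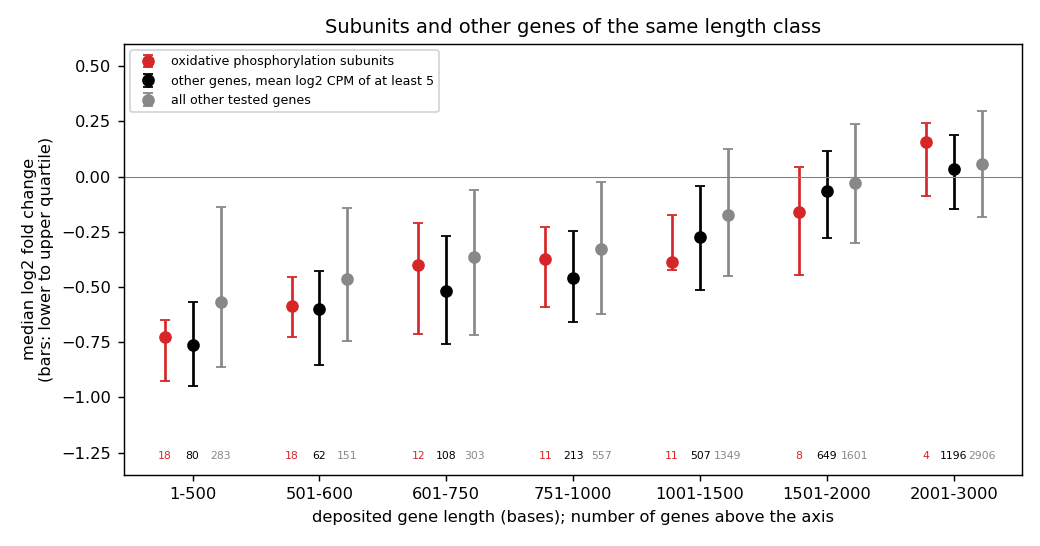
Median log2 fold change, with bars from the lower to the upper quartile, by class of deposited length for subunits (red), other abundant genes (black) and all other tested genes (grey). Numbers above the axis are genes per class. From the shortest to the longest class the medians of all 3 sets rise, from -0.73, -0.76 and -0.57 to 0.16, 0.04 and 0.05.

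The same held library by library. The median deviation of the members from their mean over 9 libraries was 0.25, -0.02, 0.50 and 0.34 in wild type and -0.31, -0.35, -0.15, -0.06 and -0.21 in the knockout libraries. For 463 other abundant genes of up to 1000 bases it was 0.32, 0.07, 0.46 and 0.38, and -0.26, -0.37, -0.13, -0.13 and -0.34. Both sets were highest in wild type replicate 3, the library with the fewest counts, and wild type replicate 2 stood nearest to the knockout libraries. For 2821 abundant genes over 3000 bases it ran the other way, from -0.13 to 0.03 in wild type and from 0.01 to 0.08 in the knockout group. Without wild type replicate 3 the median of complex I was -0.44 and without wild type replicate 2 it was -0.64. The part of RNA quality or library preparation in this length pattern was not tested.

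**Figure D4:**
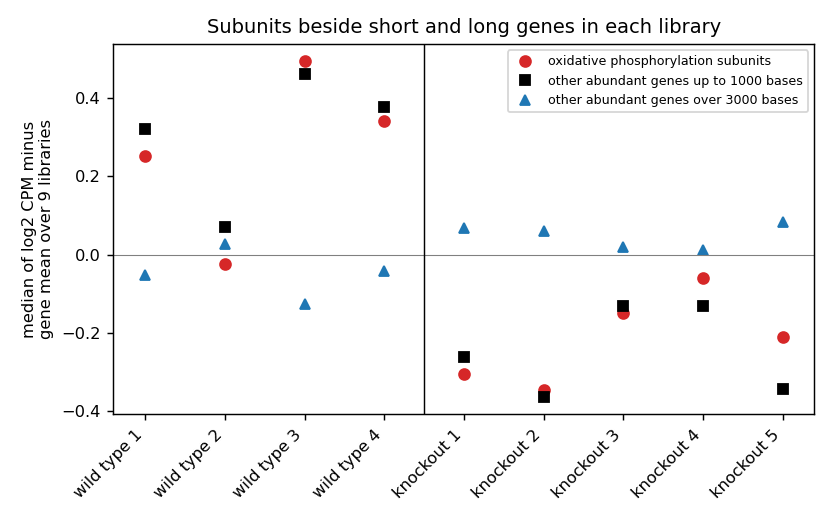
Median over genes of log2 CPM minus the gene mean, for each of the 9 libraries, for the subunits (red circles), other abundant genes up to 1000 bases (black squares) and abundant genes over 3000 bases (blue triangles). Circles and squares lie close together in each library, above 0 in wild type replicates 1, 3 and 4 and below 0 in the 5 knockout libraries, and the long genes lie on the other side.

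Gene length was therefore entered in the test as an offset, a smooth curve of each library's deviation on length. The offset as first specified also moved the median of all tested genes from 0.04 to -0.20, and with it 41 members fell and 2 rose, against 24.4% and 3.64% of all tested genes. Subtracting each curve's median over genes removed that shift. This centred offset was added after the data were seen, and below a value comes from the fit without a length term unless an offset is named. With the centred offset 18 members fell and 9 rose, against 7.32% and 8.61% of tested genes, and the members' median was -0.07 beside 0.06 for all tested genes. All 18 were among the 55 that fell without a length term. Leaving out 1 library at a time gave 10 to 18 lower and 4 to 10 higher, with 11 lower without knockout replicate 1, 10 lower without knockout replicate 2, 5 higher without knockout replicate 4 and 4 higher without knockout replicate 5. When the curve was drawn only from abundant genes, 8 members fell and 13 rose (6.34% and 9.36% of tested genes) and the members' median was 0.05 beside 0.08. With the length of the principal GENCODE transcript in place of the deposited length, 18 of 80 members fell and 7 rose (8.06% and 8.35% of tested genes), and 14 fell and 9 rose with the curve from abundant genes (7.31% and 8.70%). Medians by complex with the centred offset were -0.09 for I, 0.12 for II, -0.19 for III, -0.05 for IV and -0.10 for V, and with the curve from abundant genes 0.04, 0.16, -0.07, 0.09 and 0.10. On the deposited length the sign of these medians thus depended on which genes set the curve in complexes I, IV and V. On the GENCODE length it did not, with -0.07 and -0.04 for I, -0.05 and -0.01 for IV, and -0.10 and -0.07 for V.

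**Figure D5:**
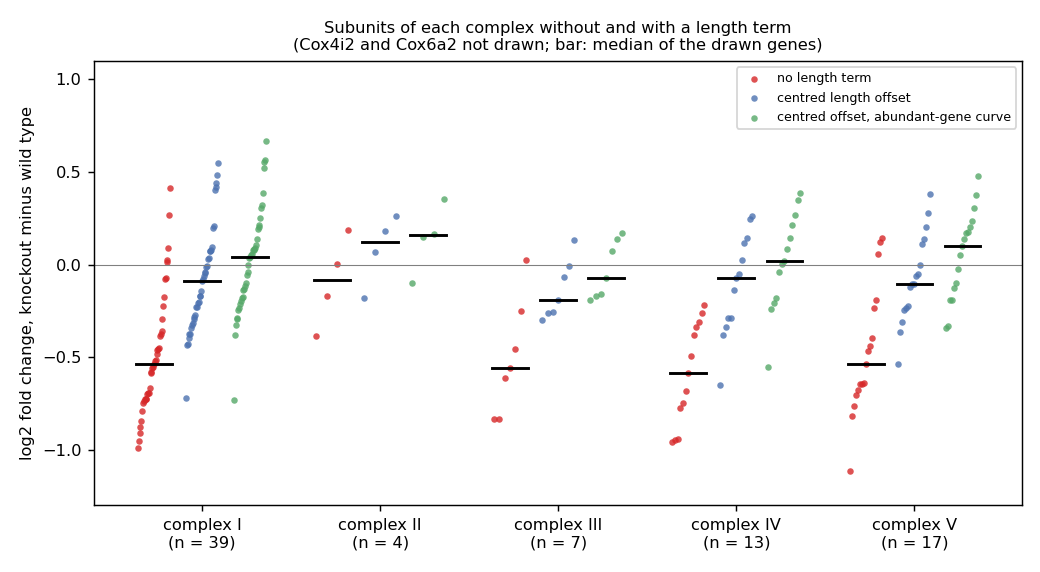
Log2 fold changes of the tested subunits of each complex without a length term (red), with the centred length offset (blue) and with the centred offset from abundant genes (green). Each point is a gene, sorted within its column, black bars are medians of the drawn genes, and Cox4i2 and Cox6a2 are not drawn. The medians of complexes I, III, IV and V lie between -0.59 and -0.54 without a length term and between -0.19 and 0.10 with one.

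Of 80 members with both lengths, 6 fell and 2 rose under all 5 length offsets, against 5.89% and 3.65% of tested genes. Ndufb9, Ndufs4, Ndufv2 and Ndufv3 in complex I, Cox7b in complex IV and Atp5e in complex V fell, and Cox4i2 and Cox6a2 in complex IV rose. Ndufa4, Ndufb6, Uqcrfs1, Cox7c and Atp5pb fell under 4 of the 5, and Ndufs1, Ndufs7, Sdhb, Cox8a and Atp5d rose under 4 of the 5, so that 11 fell and 7 rose under at least 4, against 6.61% and 7.68% of tested genes. With the centred offset and each library left out in turn, Ndufa4, Ndufb9, Ndufs4, Ndufv2, Cox7b, Cox7c, Atp5e, Ndufs7 and Atp5d were called in 9 of 9 fits, Ndufs1 in 8, Cox8a in 7, Ndufv3 and Uqcrfs1 in 5, Ndufb6 in 4, Atp5pb in 3, and Sdhb and Cox6a2 in 2. Cox4i2, with 0 wild type counts, could pass the count filter only through the knockout libraries. It was called in the 5 fits where it passed, and failed the filter without knockout replicate 2, 3, 4 or 5. Those 5 fits therefore cannot be set beside 9 of 9.

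Sequence upstream of 3 annotated starts is shown to compare genes that behaved differently. Without a length term Atp5e had the smallest adjusted p of all members, and Atp5b, an abundant catalytic subunit gene, was not called. For Ndufa11 the call depended on which length was used. The stretches are in the order Atp5e, Ndufa11 and Atp5b. Each stretch is the 250 bases before the start in RefSeq's GRCm38.p6, 5′ to 3′ on the gene's strand. They lie at chr2:174464102-174464351 (minus strand), chr17:56717512-56717761 (plus strand) and chr10:128083057-128083306 (plus strand). Capitals mark matches to 3 motifs known from promoters of respiratory chain genes and searched on both strands: GCGCA, any base and GCGC for NRF1, CCGGAAG for ETS factors such as GABPA, and ATGGCGG for YY1.
Atp5e: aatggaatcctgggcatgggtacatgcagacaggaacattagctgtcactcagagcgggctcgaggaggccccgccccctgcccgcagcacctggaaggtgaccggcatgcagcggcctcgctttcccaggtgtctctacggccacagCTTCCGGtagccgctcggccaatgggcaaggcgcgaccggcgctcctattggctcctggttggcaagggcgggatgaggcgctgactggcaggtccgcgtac
Ndufa11: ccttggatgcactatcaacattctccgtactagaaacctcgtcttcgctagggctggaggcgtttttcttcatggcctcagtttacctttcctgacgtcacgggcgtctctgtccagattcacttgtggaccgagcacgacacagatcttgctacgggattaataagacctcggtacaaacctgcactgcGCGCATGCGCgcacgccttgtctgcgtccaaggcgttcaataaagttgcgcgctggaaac
Atp5b: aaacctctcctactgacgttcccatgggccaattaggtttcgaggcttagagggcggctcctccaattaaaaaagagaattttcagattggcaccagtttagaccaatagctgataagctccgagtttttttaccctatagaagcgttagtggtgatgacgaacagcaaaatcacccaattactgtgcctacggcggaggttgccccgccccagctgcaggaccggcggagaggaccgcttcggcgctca
The Atp5e stretch holds an ETS match on the other strand, the Ndufa11 stretch an NRF1 match, and the printed Atp5b stretch none of the 3, although the full Atp5b promoter in the table holds a YY1 match outside it. Of the 87 members 70 had a promoter in the RefSeq table, which spans 250 bases before to 50 after the start, and matches of different motifs were counted each on its own, overlaps included. The NRF1 letters were in 24.3% of members, 11.8% of tested genes and 5.19% of all promoters in the table. For ETS these shares were 24.3, 20.8 and 9.93%, and for YY1 14.3, 9.7 and 4.69%. Members that fell without a length term and members that were not called held them in like proportion, in 12 of 47 and 5 of 20 for NRF1, 12 of 47 and 4 of 20 for ETS, and 7 of 47 and 3 of 20 for YY1. A match describes letters and is no measure of binding.

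Complex I takes electrons from NADH. Its nuclear core subunits, which carry the flavin and most iron-sulfur clusters, were longer than the accessory subunits (median 1472 against 560.5 bases), and of 7 core genes 2 fell and 1 rose without a length term, and 1 fell and 2 rose with the centred offset. Of 32 tested accessory genes 27 fell and none rose without a length term, and 8 fell and 2 rose with the centred offset. Beside these counts, 11.0% of all tested genes fell and 8.97% rose without a length term. With the centred offset the shares were 7.32% and 8.61%. The core and accessory groups follow textbook roles and were drawn up after values were seen, and the difference between them was not tested.

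Ndufs1, the largest iron-sulfur subunit of the NADH-oxidising arm (chromosome 1, 63143592 to 63176822), was at 103.2, 73.9, 79.8 and 77.5 CPM in wild type and at 98.7, 113, 110, 119 and 116 CPM in the cKO libraries. The groups overlapped through wild type replicate 1, and Ndufs1 rose by 0.41 (SE 0.11, adjusted p = 0.0132) and by 0.40 (adjusted p = 0.0168) with the centred offset. Its span overlaps the antisense gene Ino80dos, and the strand setting of the counts is not given. Ndufs7, which carries an iron-sulfur cluster beside the quinone site, had a log2 fold change of 0.01 (adjusted p = 0.946) without a length term and of 0.42 (adjusted p = 0.00624) with the centred offset. The flavin-binding subunit Ndufv1 was not called without a length term (0.09) or with the centred offset (0.21). It was called higher with the curve from abundant genes (0.25, adjusted p = 0.0439).

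Ndufv2, the iron-sulfur partner of Ndufv1, and the accessory subunits Ndufv3 and Ndufs4 of the same arm fell with and without a length term. Ndufv2 (chromosome 17, 66078795 to 66101559) went from a mean of 139 ± 17.4 CPM (SD, n = 4) down to 97.1 ± 12.3 CPM (SD, n = 5), a change of -0.52 (adjusted p = 0.00454) and of -0.38 (adjusted p = 0.011) with the centred offset. Ndufs4 (chromosome 13, 114287795 to 114388094), needed for a stable NADH-oxidising module, fell, with a change of -0.56 (SE 0.09, adjusted p = 9.03e-04) and of -0.43 (adjusted p = 0.00354) with the centred offset. Its 5 knockout libraries spanned 53.0 to 58.7 CPM, below the 72.8 to 93.9 CPM of wild type. Ndufv3 fell, with a change of -0.46 (adjusted p = 0.00814) and of -0.34 (adjusted p = 0.0244), the latter not called without wild type replicate 1 or knockout replicate 1, 2 or 4 (adjusted p up to 0.0699).

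Among the small accessory subunits, Ndufa4 (chromosome 6, 11900372 to 11907450), the most abundant member of this set per kilobase of deposited length, was at 269.8, 192, 288 and 264 CPM in wild type and at 124, 117, 108, 159.5 and 131 CPM in the cKO libraries. The groups did not overlap, and it fell, with a change of -0.99 (SE 0.13, adjusted p = 2.07e-04), of -0.43 with the centred offset (adjusted p = 0.0118) and of -0.29 with the curve from abundant genes, where it was not called (adjusted p = 0.0629). Ndufb9, an accessory subunit of the membrane arm (chromosome 15, 58933801 to 58939516), was at 157, 132, 190 and 179 CPM against 92.3, 84.9, 105, 101 and 92.2 CPM. All knockout libraries were below all wild type libraries, and Ndufb9 fell, with a change of -0.79 (SE 0.11, adjusted p = 2.44e-04) and of -0.31 with the centred offset (adjusted p = 0.00651). Ndufc2, also of the membrane arm, was at 110, 113, 138 and 129 CPM against 66.0, 65.3, 71.3, 85.4 and 78.0 CPM and fell, with a change of -0.74 (SE 0.10, adjusted p = 2.60e-04). With the centred offset its change was -0.29 (adjusted p = 0.0377), and with the curve from abundant genes -0.19 (adjusted p = 0.162).

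For several complex I genes whose deposited length and principal GENCODE transcript differ, among them Ndufa11, Ndufb2 and Ndufab1, the call turned on which length was used. Ndufa11, a membrane arm subunit (chromosome 17, 56717762 to 56724248), has a deposited length of 2661 bases and a GENCODE transcript of 545 bases. It was at 81.4, 59.3, 112 and 71.4 CPM in wild type and at 47.1, 46.0, 54.5, 51.3 and 46.2 CPM in the cKO libraries, with no overlap. Its change was -0.72 both without a length term (adjusted p = 0.00365) and with the centred offset on the deposited length (adjusted p = 0.00477), and -0.13 (adjusted p = 0.386) on the transcript length. The reverse held for Ndufb2 (455 bases deposited, 2413 in GENCODE), at -0.17 (adjusted p = 0.204) on the deposited and -0.73 (adjusted p = 0.00163) on the transcript length. Ndufab1, the mitochondrial acyl carrier protein (800 and 2448 bases), gave -0.28 (adjusted p = 0.245) and -0.69 (adjusted p = 0.0172).

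For the other complex I genes called with the length offset as first specified, the change without a length term and then with the centred offset is given. Ndufa7 (-0.88 and -0.33) and Ndufb6 (-0.91 and -0.37) fell in both fits, but neither was called with the curve from abundant genes (adjusted p = 0.184 and 0.121). Ndufb4 (-0.95 and -0.40), Ndufb4b (-0.85 and -0.27), Ndufs6 (-0.74 and -0.23), Ndufb8 (-0.70 and -0.21), Ndufa2 (-0.69 and -0.17), Ndufb5 (-0.54 and -0.23), Ndufa9 (-0.39 and -0.20) and Ndufs8 (-0.36 and -0.04) were called without a length term and not with the centred offset. Ndufs8 was close to the threshold (adjusted p = 0.0367) and was not called without wild type replicate 3 or 4 or knockout replicate 1, 2, 4 or 5, nor Ndufa9 without wild type replicate 4. Ndufb4, Ndufb4b and Ndufb4c are similar copies of 1 gene, so reads may be split among them and their values are uncertain. Ndufa10 (0.27 and 0.48) and Ndufa5 (0.03 and 0.55) were called higher with the centred offset and not without a length term. With the centred offset on the GENCODE length neither was called (adjusted p = 0.0545 and 0.0707), while Ndufb4 was called lower (-0.60, adjusted p = 0.00705). Ndufa4l2, a paralog of Ndufa4 known from hypoxia, had 1 count in all wild type and 3 in all knockout libraries and was not tested.

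Complex II, which is also an enzyme of the citric acid cycle and has no subunit from mitochondrial DNA, gave no call without a length term. Its genes were longer, with a median of 1232 bases. The catalytic flavoprotein Sdha was at 281, 279.6, 342 and 329.6 CPM in wild type and at 328, 332, 339, 378 and 378 CPM in the cKO libraries (0.19, SE 0.09, adjusted p = 0.159). The iron-sulfur subunit Sdhb was at 141, 128.5, 153 and 132 CPM against 132, 132, 133, 160.0 and 136 CPM, a log2 fold change within 0.01 of 0 (0.0013, adjusted p = 0.993). With the centred offset the value for Sdhb was 0.27 (adjusted p = 0.0302), called in 2 of 9 fits with a library left out.

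The 2 membrane anchors of complex II were Sdhc and Sdhd. Sdhc, the most abundant subunit of the complex in wild type per kilobase of deposited length (131.4 CPM per kilobase against 129.1 for Sdhb, and 116.7 against 129.2 in the knockout group), was at 147, 127, 201 and 145 CPM against 125, 133, 136, 153 and 141 CPM (-0.17, adjusted p = 0.356). Sdhd was at 14.2, 7.53, 17.7 and 10.1 CPM against 8.79, 8.33, 10.8, 10.2 and 9.05 CPM (-0.39, adjusted p = 0.281). The groups of both genes overlapped, and neither was called with the centred offset (0.07 and -0.18).

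Complex III passes electrons from ubiquinol to cytochrome c. Its small subunits fell without a length term. Uqcrh, the hinge protein that helps to dock cytochrome c and the most abundant member of the complex per kilobase, was at 210, 168, 305 and 250 CPM in wild type and at 121, 120, 160.4, 134 and 118 CPM in the cKO libraries. The groups did not overlap and the change was -0.84 (SE 0.15, adjusted p = 0.00139), and -0.30 with the centred offset (adjusted p = 0.0432). With the curve from abundant genes Uqcrh was not called (-0.17, adjusted p = 0.229). Uqcr10 was at 141, 106, 208 and 135 CPM against 73.1, 74.9, 88.9, 90.5 and 85.1 CPM, again without overlap (-0.84, adjusted p = 0.00176). Uqcrb, a ubiquinone-binding subunit, was at 76.6, 66.6, 90.5 and 93.2 CPM against 48.2, 49.4, 54.1, 61.8 and 54.1 CPM (-0.61, adjusted p = 0.00206). Neither passed with the centred offset (-0.25 and -0.07).

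The longer members of complex III differed among themselves. The Rieske iron-sulfur protein Uqcrfs1 fell from a mean of 238 ± 27.8 CPM (SD, n = 4) to one of 174 ± 10.2 CPM (SD, n = 5), a change of -0.45 (adjusted p = 0.00281) and of -0.26 with the centred offset (adjusted p = 0.0283). With the curve from abundant genes Uqcrfs1 was not called (-0.19, adjusted p = 0.0691). The core protein Uqcrc2 gave -0.25 (adjusted p = 0.089, and called at -0.31 without wild type replicate 2) and -0.19 with the centred offset (adjusted p = 0.134), and Uqcrc1 gave 0.03 (adjusted p = 0.867) and 0.13 (adjusted p = 0.25). Uqcr11 had 0 counts in all 9 libraries, which says only that the table lists none for it.

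Complex IV, cytochrome c oxidase, reduces oxygen. Several of its nuclear subunits exist as a general isoform and an isoform known from particular tissues. Among the 11 members that are not tissue isoforms 9 fell and none rose without a length term, and 3 fell and 1 rose with the centred offset. Of 7 tissue isoforms 4 were tested, and 1 rose without a length term (Cox4i2) and 2 with the centred offset (Cox4i2 and Cox6a2). Both of these isoforms rest on few counts. The shares of all tested genes were 11.0% lower and 8.97% higher without a length term, and 7.32% and 8.61% with the centred offset.

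Cox7b, a small subunit needed for the assembly of the complex (chromosome X, 106015700 to 106022450), had the largest decrease of complex IV. It was at 211, 150.5, 271 and 211 CPM in wild type and at 96.9, 105, 107, 118 and 115 CPM in the cKO libraries. The groups did not overlap, and Cox7b fell, with a change of -0.96 (SE 0.13, adjusted p = 2.66e-04), of -0.65 with the centred offset (adjusted p = 0.00104) and of -0.55 with the curve from abundant genes (adjusted p = 0.00174). With each library left out in turn the centred value stayed between -0.76 and -0.56. Cox7c, another small subunit, was at 132, 109, 170.4 and 149 CPM against 64.2, 65.1, 70.9, 91.3 and 72.8 CPM. It fell, with a change of -0.95 (adjusted p = 2.66e-04) and of -0.38 with the centred offset (adjusted p = 0.0112), and was not called with the curve from abundant genes (-0.21, adjusted p = 0.119).

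Cox4i1, the general isoform of subunit 4 and the most abundant member of complex IV per kilobase, was at 797, 658, 1066 and 899 CPM in wild type and at 481, 440.1, 602, 551 and 473 CPM in the cKO libraries. It fell, with a change of -0.75 (SE 0.13, adjusted p = 0.00108) and of -0.29 with the centred offset (adjusted p = 0.0221). With the curve from abundant genes Cox4i1 was not called on the deposited length (-0.18, adjusted p = 0.118) or the GENCODE length (-0.24, adjusted p = 0.0528). Its counterpart Cox4i2, an isoform known from lung and linked to oxygen sensing (chromosome 2, 152753916 to 152765039), had 0 counts in all 4 wild type libraries and was at 0.275, 0.728, 0.775, 0.674 and 0.878 CPM in the cKO libraries. Taken against a floor of 3 counts over the whole wild type group, its 124 knockout counts make it at least 18.2-fold higher, a bound that covers counting error only. Cox4i2 could pass the count filter only through the knockout libraries. The adjusted p of its fitted change (0.00776) is therefore no separate support for the rise. Its level stayed under 1 CPM, and the span overlaps Bcl2l1, at 56.7 to 63.6 CPM in wild type and 53.1 to 60.7 CPM in the knockout group. Whether reads of that gene add to the Cox4i2 counts was not tested.

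Cox6a1, the general isoform of subunit 6a, was at 241, 228, 263 and 279 CPM in wild type and at 183, 166, 194, 219.9 and 206 CPM in the cKO libraries (-0.38, adjusted p = 0.0116, and 0.14 with the centred offset, adjusted p = 0.275), and its call was lost without wild type replicate 4 (-0.32). Cox6a2, the isoform known from heart and skeletal muscle (chromosome 7, 128205435 to 128206366), was at 1.23, 0, 0.954 and 1.39 CPM against 3.70, 6.77, 0.748, 4.87 and 5.31 CPM. Knockout replicate 3 lay within the wild type range, and the change of 2.26 (SE 0.81) was not called without a length term (adjusted p = 0.0649) but was with the centred offset (2.81, adjusted p = 0.0337). Without a length term it was called higher when wild type replicate 2 (1.83) or knockout replicate 3 (2.54) was left out and with DESeq2 (2.25). Its span overlaps the integrin gene Itgad, which was at 33.7, 33.1, 44.4 and 39.9 CPM in wild type and at 82.2, 177, 28.4, 83.3 and 87.1 CPM in the cKO libraries, also lowest in knockout replicate 3. Muscle markers summed to 0 to 0.137 CPM in wild type and 0.641 to 1.503 CPM in the knockout group, none of them tested. The part of the overlapping gene or of muscle RNA in the Cox6a2 values was not tested.

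Cox6b1, the general isoform of subunit 6b, was at 270.5, 209.9, 297 and 283 CPM against 156, 148.5, 171, 183 and 167 CPM and fell, with a change of -0.68 (SE 0.10, adjusted p = 4.75e-04), with -0.14 (adjusted p = 0.186) under the centred offset. Cox6b2, known from testis, was at 38.6, 46.2, 31.4 and 36.7 CPM against 34.8, 29.0, 33.3, 33.2 and 34.3 CPM and was not called in either fit (-0.22 and 0.25).

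Cox7a2, the general isoform of subunit 7a, was at 40.2, 27.5, 51.4 and 40.9 CPM against 23.8, 22.9, 20.9, 26.2 and 23.0 CPM and fell, with a change of -0.77 (adjusted p = 0.00314), with -0.34 (adjusted p = 0.0911) under the centred offset. The muscle isoform Cox7a1 was at 2.10, 1.28, 7.24 and 4.51 CPM against 1.65, 2.26, 1.95, 2.13 and 1.80 CPM, with the wild type libraries spread on both sides of the knockout libraries (-0.94, adjusted p = 0.198). Cox7a2l was at 209, 168.5, 244.5 and 217 CPM against 158, 158, 202, 186 and 142.5 CPM (-0.31, adjusted p = 0.0891), and fell when wild type replicate 2 (-0.40) or knockout replicate 3 (-0.37) was left out.

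Cox8a, the general isoform of subunit 8, was at 238, 227, 292 and 284.5 CPM in wild type and at 198, 207, 236.5, 230.4 and 217 CPM in the cKO libraries. The values were -0.26 (adjusted p = 0.0688) without a length term and 0.26 (adjusted p = 0.0172) with the centred offset, so the sign turned. Without a length term Cox8a was called lower when wild type replicate 2 (-0.32) or knockout replicate 3 (-0.28) was left out and with DESeq2 (-0.27). Cox7b2 and Cox8c had 0 counts in all libraries and Cox8b had 1 count, in a knockout library. These 3 isoforms, known from testis or muscle, were not tested. Of the remaining subunits Cox6c was at -0.59 (adjusted p = 0.00132) and -0.05 (adjusted p = 0.662) without and with the centred offset.

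Complex V consists of a catalytic F1 head on a membrane-bound rotor. Of the 5 genes of the head and central stalk, with a median length of 1801 bases, 2 fell and 3 were not called without a length term, and of the other 12, with a median of 610.5 bases, 10 fell. With the centred offset 2 of the 5 fell and 1 rose, and 2 of the other 12 fell. With the curve from abundant genes 2 of the 5 fell and 2 rose, and 0 of the other 12 fell. The shares of all tested genes were 11.0% lower and 8.97% higher without a length term. They were 7.32% and 8.61% with the centred offset, and 6.34% and 9.36% with the curve from abundant genes.

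Atp5e, the epsilon subunit of the central stalk (chromosome 2, 174461075 to 174464101), had the largest decrease of all members without a length term, while with the centred offset Ndufa11 and Cox7b had larger ones. It was at 330, 257, 397 and 356 CPM in wild type and at 143, 137, 170.4, 175 and 148 CPM in the cKO libraries. The groups did not overlap, and Atp5e fell, with a change of -1.12 (SE 0.12, adjusted p = 6.2e-05), of -0.54 with the centred offset (adjusted p = 2.27e-04) and of -0.34 with the curve from abundant genes (adjusted p = 0.00353). Its neighbour in the stalk, the gamma subunit Atp5c1, fell from a mean of 472 ± 55.5 CPM (SD, n = 4) to one of 348 ± 25.8 CPM (SD, n = 5), a change of -0.44 (adjusted p = 0.004) and -0.37 with the centred offset (adjusted p = 0.00592), but was not called on its GENCODE transcript length of 1166 in place of 1801 bases (-0.17, adjusted p = 0.101). The delta subunit Atp5d gave 0.06 (adjusted p = 0.686) and rose by 0.38 with the centred offset (adjusted p = 0.00904).

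The alpha and beta subunits, which form the catalytic ring, were named after their values were seen. Atp5a1 gave 0.12 (adjusted p = 0.344) and Atp5b 0.14 (adjusted p = 0.275). Atp5b was at 1168, 1029, 1263 and 1241 CPM in wild type and at 1183, 1235, 1264, 1425 and 1377 CPM in the cKO libraries, with overlapping groups. Under the centred offset Atp5b stood at 0.20, beside -0.54 for Atp5e, whose deposited lengths are 1879 and 414 bases, and the difference between these genes was not tested. With the curve from abundant genes Atp5b was called higher (0.24, adjusted p = 0.0372).

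In the peripheral stalk and membrane part, Atp5h, subunit d, was at 84.3, 76.6, 97.0 and 93.8 CPM against 45.1, 47.2, 48.5, 59.97 and 49.3 CPM, without overlap. It fell, with a change of -0.82 (SE 0.11, adjusted p = 1.97e-04) and of -0.31 with the centred offset (adjusted p = 0.0245), and was not called with the curve from abundant genes (-0.19, adjusted p = 0.144). Atp5mpl, a small membrane protein of the synthase, was at 118, 102, 146 and 123 CPM against 70.9, 73.3, 75.9, 89.1 and 82.0 CPM, again without overlap. It fell, with a change of -0.65 (adjusted p = 9.15e-04), with -0.06 (adjusted p = 0.649) under the centred offset. Subunit b, Atp5pb, fell in both fits (-0.39 and -0.25) but was not called with the curve from abundant genes (-0.19, adjusted p = 0.0973). Atp5l (-0.77 and -0.23), Atp5j2 (-0.68 and -0.11), Atp5j (-0.64 and -0.22) and Atp5o (-0.54 and -0.12) fell without a length term and were not called with the centred offset.

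The rotor ring of the synthase is made of subunit c, which is encoded by 3 genes for the same mature protein. Atp5g3, the most abundant member of complex V in wild type per kilobase of deposited length (822.7 CPM per kilobase against 625.6 for Atp5b, and 595.5 against 690.1 in the knockout group), was at 548.5, 444, 654 and 587 CPM in wild type and at 359.8, 380.4, 409.7, 439.6 and 432 CPM in the cKO libraries. It fell, with a change of -0.47 (SE 0.11, adjusted p = 0.00654), and was not called with the centred offset (adjusted p = 0.984). Atp5g1 was at 18.1, 16.8, 16.4 and 17.7 CPM against 13.1, 15.3, 12.4, 17.1 and 15.3 CPM (-0.24, adjusted p = 0.285). Atp5g2 was at 20.6, 14.5, 15.4 and 23.1 CPM against 15.5, 14.7, 17.6, 17.4 and 15.6 CPM (-0.19, adjusted p = 0.451). The latter pair overlapped between groups and was not called with the centred offset either.

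Factors that build the complexes were followed from lists of assembly genes. Of 53 tested 21 fell and none rose without a length term, with a median length of 1337 bases and a median change of -0.26, and 10 fell and 1 rose with the centred offset. The shares of all tested genes were 11.0% lower and 8.97% higher without a length term, and 7.32% and 8.61% with the centred offset. By complex and without a length term, 2 of 15 fell for complex I, 3 of 4 for complex II, 1 of 6 for complex III, 11 of 22 for complex IV and 4 of 6 for complex V. Tmem70, an assembly factor of the ATP synthase, fell from a mean of 76.9 ± 10.3 CPM (SD, n = 4) to one of 37.9 ± 4.57 CPM (SD, n = 5), a change of -1.02 (adjusted p = 1.14e-04) and of -0.93 with the centred offset (adjusted p = 1.58e-04). Coa6 and Coa3, factors of complex IV, fell, with changes of -1.16 and -0.90, and of -0.75 and -0.47 with the centred offset (adjusted p = 0.00136 and 0.0022). Ndufaf5 (-0.85) and Sdhaf2 (-0.39), which serve complexes I and II, also fell with the centred offset (-0.85 and -0.41). On its GENCODE transcript length of 1166 in place of 2732 bases Ndufaf5 was not called (-0.57, adjusted p = 0.0603), while Sdhaf2 was (-0.42, adjusted p = 0.0269). Sdhaf4 (-0.79), Uqcc2 (-0.82), Fmc1 (-0.81) and Ndufaf2 (-0.62) fell without a length term and were not called with the centred offset, and Ttc19 was not called (0.51, adjusted p = 0.176).

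Of the 13 protein genes of mitochondrial DNA, which encode further subunits, 1 fell and none rose without a length term, with a median of -0.12. The gene that fell was ND3, of 348 bases (-0.62, adjusted p = 0.0393), and COX3 was not called (-0.21, adjusted p = 0.254). With the centred offset none fell and 3 rose. Among all tested genes 11.0% fell and 8.97% rose without a length term, and 7.32% fell and 8.61% rose with the centred offset. These genes took 1.45, 1.35, 1.41 and 1.28% of counts in wild type and 1.27, 1.497, 1.19, 0.97 and 1.77% in the knockout libraries, so the groups overlapped.

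The enzymes and carriers around the chain were not uniformly lower. Their counts stand beside 11.0% of all tested genes lower and 8.97% higher without a length term. With the centred offset these shares were 7.32% and 8.61%. Of 18 tested citric acid cycle and pyruvate genes none fell and 4 rose without a length term, among them the mitochondrial isocitrate dehydrogenase Idh2 (log2 fold change 0.28, adjusted p = 0.0151), and with the centred offset none fell and 6 rose. With the length offset as first specified, which lowers all genes, 2 of these 18 fell and none rose, against 24.4% and 3.64% of all tested genes. Among 7 electron carriers and related genes, Etfdh, which feeds electrons from fatty acid oxidation to ubiquinone, rose by 0.62 (adjusted p = 5.16e-04) and Etfb, of 815 bases, fell, with a change of -0.29 (adjusted p = 0.0434) without a length term but gave 0.09 (adjusted p = 0.358) with the centred offset. The complex III subunit Cyc1 was not called without a length term (-0.23, adjusted p = 0.191) or with the centred offset (adjusted p = 0.999). Of 15 tested regulators of mitochondrial biogenesis 1 fell without a length term and 3 with the centred offset. The first was the mitochondrial transcription elongation factor Tefm (-1.04, adjusted p = 0.00886), while Tfam, which packages mitochondrial DNA, gave -0.33 (adjusted p = 0.0822) and -0.38 with the centred offset (adjusted p = 0.0475). Of 13 exchange genes of the inner and outer membrane 5 fell without a length term, and with the centred offset 1 fell and 2 rose. The pyruvate carrier Mpc1 (-0.64, adjusted p = 0.00503) and the porin Vdac3 (-0.43, adjusted p = 0.0102) were among the 5. Neither was called with the centred offset (-0.32 and -0.27, adjusted p = 0.0868 and 0.077), where the gene that fell was Phb (-0.32, adjusted p = 0.0458).

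Ribosomal protein genes are another set of short, abundant genes. For all tested genes the shares were 11.0% lower and 8.97% higher without a length term, and 7.32% and 8.61% with the centred offset. Of 90 tested cytosolic ribosomal protein genes, with a median length of 681.5 bases, 74 fell without a length term (median -0.64) and 41 fell and 4 rose with the centred offset (median -0.25). Of 77 mitochondrial ribosomal protein genes, with a median length of 1055 bases, 39 fell (median -0.36) and 19 fell and 2 rose (median -0.10). The subunit genes, at 55 of 82 and 18 of 82, thus had medians of -0.52 and -0.07, and the differences between these sets were not tested.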

How the data were processed

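Polyadenylated RNA of sorted alveolar macrophages was sequenced in 9 libraries with single reads of 85 bases. The deposited files hold whole-number counts by Entrez gene and a length for each gene. According to the submitters' processing notes the authors used featureCounts and mm10. No label or header names the aligner, annotation or strandedness, so reads in overlapping genes (20 members) could not be assigned. All 9 single tables equalled the joint table, which was used. Symbols and coordinates came from RefSeq GRCm38.p6, which named 25275 of 27179 identifiers. Total counts ranged from 13.8 to 45.6 M, and floors cover counting error only.

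Counts were tested in R 4.3.3 with edgeR 4.0.16 (TMM, filterByExpr, robust glmQLFit, two-sided glmQLFTest) over all 9 libraries and no covariate, with Benjamini-Hochberg adjustment over 12840 tested genes and a threshold of 0.05. Standard errors were derived from the test statistic, and log2 CPM has prior count 2. The length offset is a smooth fit (loess, span 0.5) of log2 CPM deviations on log2 length, made for each library. Centring and the GENCODE vM21 lengths (91.1% of tested genes) were added after the data were seen. The fit without a length term and the length offset as first specified were tested on simulated data. The centred offsets, the curve from abundant genes and the GENCODE lengths were not. Alternatives used DESeq2 1.42.0, limma 3.58.1 (voom), other scaling, filters, thinning, loess spans, a replicate block, genes of 300 to 1500 bases, and each library left out.

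Members and lists were chosen with earlier results of these data known. Members shown by library are, per complex, the 3 with the smallest adjusted p, the most abundant per kilobase and any called higher, besides 8 isoform families. The rule also takes members called with the length offset, 25 of which are given as fold changes or means only. Each other list gives its 2 genes with the smallest p. Other genes were named after their values were seen. Values of some genes that these rules take are not reported here.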

Additional observations from a re-analysis of the deposited data

Results flagged for a closer look

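In 5 of 100 groups of 4 or 5 libraries examined, 1 library stood apart from the rest by Dixon's test, where chance gives about 1 in 20. Cox4i2 was lowest in knockout replicate 1, at 0.275 CPM against 0.674 to 0.878 CPM in the other knockout libraries. Cox6a2 was lowest in wild type replicate 2, listed at 0 CPM against 0.954 to 1.39 CPM, and in knockout replicate 3, at 0.748 CPM against 3.70 to 6.77 CPM. Sdhb was highest in knockout replicate 4, at 160.0 CPM against 131.9 to 136.2 CPM. Cox6b2 was lowest in knockout replicate 2, at 29.01 CPM against 33.2 to 34.8 CPM.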

How the results depend on the processing

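Without a length term the count of members called lower stayed within 1.5 times of 55 under DESeq2, voom, library size scaling, both filters and thinning, and was 48 to 59 with each library left out. Members called higher, 2 in the main analysis, were 7 with library size only, 1 with the stricter filter and 1 to 3 with each library left out. When scaling and testing used only genes of 300 to 1500 bases, 26 members were lower and 6 higher, and the medians were -0.22 (complex I), 0.17 (II), -0.28 (III), -0.16 (IV) and -0.31 (V). In that fit the signs turned for Sdhc (0.17), Atp5g1 (0.090), Atp5g2 (0.14), Cox7a2l (0.021), Cox8a (0.072) and Cox6b2 (0.091), none of them called in the main analysis. Sdhb, near 0, turned to -0.0069 with DESeq2, -0.0003 with the stricter filter, and below 0 without wild type replicate 2 or 4 or knockout replicate 4, within -0.054 to 0.064 over all libraries left out in turn. Over 55 named genes and all alternatives without a length term, 875 of 921 values kept sign and call.

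With the length offset as first specified, 41 members were lower and 2 higher. The stricter filter gave 27 and 4, with medians of -0.18 (I), -0.17 (IV) and -0.12 (V), and leaving out each library gave 0 to 2 higher. The centred offset gave 18 lower and 9 higher, with medians of -0.089, 0.12, -0.19, -0.0525 and -0.10 for complexes I to V. Drawn from abundant genes it gave 8 and 13, with 0.041, 0.16, -0.073, 0.087 and 0.10. On GENCODE transcript length it gave 18 and 7, with -0.071 (I), -0.19 (III), -0.054 (IV) and -0.10 (V), and from abundant genes 14 and 9, with -0.040, 0.0325, -0.15, -0.012 and -0.070. Leaving out each library from the centred fit gave 10 to 18 lower and 4 to 10 higher. Cox4i2 did not pass the count filter in 4 of those 9 fits.

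Replicate numbers are shared by the groups but do not pair the libraries (correlations of deviations 0.036, 0.032, -0.057 and 0.115). With a replicate block 51 members were lower and 1 higher, the call of Cox4i2 being lost (adjusted p = 0.1), and 39 lower and 0 higher with the block and the length offset. Knockout replicate 5, alone in its block, adds nothing there.

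Depth limits the low isoforms: Cox4i2 and Cox6a2 rest on few counts, and the 5 untested members on 0 to 3 per group. The centred offset assumes that genes of a length share a trend, so a change common to most short genes could not be seen with it. The cause of the length trend was not tested.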
